A study of Mus with 10 samples.

Results

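Immediate early genes were followed in mouse skin after PUVA, the combination of psoralen, a light-activated DNA crosslinker, with UVA light. The 10 genes were Fos, Fosb, Jun, Junb, Atf3, Egr1, Egr3, Nr4a1, Dusp1 and Ier2. They were picked by name with earlier results of these arrays known, and all 10 were found among 22180 named genes. Where a gene had more than 1 probe set, the one with the highest mean over all arrays stood for it, and each of the 10 had a single probe set. Because the choice was made with the group values in view, the levels and differences of these genes are given as a description, and no test of them is read as support.

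The mice were female BALB/c, 7-8 weeks old, and skin RNA was measured on Affymetrix gene arrays, with 4 arrays of skin with a 7-day gap after PUVA (the 7-day group), 4 arrays with a 3-day gap (the 3-day group) and 2 control arrays. In both PUVA groups, per the labels, topical psoralen and UVA at 0.25 J/cm2 were given 2 times a week for 2 weeks. In the protocol the gap separated PUVA from imiquimod, a drug that causes a psoriasis-like dermatitis in mice. The labels state neither whether the arrayed skin had received imiquimod nor what was applied to the controls beyond having no gap, so how long after PUVA the skin was taken is left unstated. Whether each array is a separate animal is not stated, and the spread between arrays may therefore be partly technical.

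Immediate early genes are switched on within minutes of a stimulus, from factors already present in the cell and without new protein synthesis. Growth factors, cytokines, wounding and ultraviolet light act through MAP kinases on serum response factor and CREB at their promoters, and most of the transcripts decay quickly. The Fos and Jun proteins pair to form AP-1, a regulator of keratinocyte growth, differentiation and inflammation. In mice, loss of Jun and Junb in the epidermis gives a psoriasis-like disease.

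On the log2 scale the arrays had median signals of 5.83 to 5.86. The tissue label was borne out by keratinocyte markers: 8 of 9 written markers were measured, with mean log2 signals of 11.58 to 11.78 in the 7-day, 11.50 to 11.68 in the 3-day and 11.58 to 11.67 in the control arrays. Skeletal muscle markers (8 of 8 measured) were also high, at 11.76 to 11.90, 11.52 to 11.91 and 11.74 to 11.87 in the same groups, so the RNA was not from epidermis alone. Hair follicle markers (9 of 10 measured) averaged 4.84 to 5.02, 4.78 to 5.23, and 6.25 and 8.94, so control replicate 2 stood far from control replicate 1. Melanocyte markers (6 of 6 measured) averaged 5.73 to 5.94, 5.64 to 6.56, and 6.11 and 7.59, with the same order of the controls. Macrophage markers (8 of 8 measured) averaged 9.44 to 9.91 in the 7-day, 9.60 to 10.47 in the 3-day and 9.36 to 9.52 in the control arrays. Fibroblast markers (6 of 7 measured) averaged 10.91 to 11.38, 11.36 to 11.99 and 10.87 to 11.50 in the same groups. Mast cell markers (7 of 7 measured) averaged 7.15 to 7.41, 7.43 to 7.84 and 7.16 in each control, and Schwann cell markers (4 of 6 measured) averaged 6.47 to 6.80, 6.63 to 6.83, and 6.33 and 6.45. The part of these shifts in the results below was not tested. In whole skin, a difference in the number of cells that express a gene cannot be told apart from a difference in RNA per cell.

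Compared with control skin, most immediate early genes lay higher in both PUVA groups, with large differences between arrays of 1 group. The median log2 difference from control was 0.73 in the 7-day group, where all 10 genes lay above 0, and 0.53 in the 3-day group, where 9 of 10 did and Egr3 lay below. Over all genes the medians were 0.02 and 0.0, with 55.0% and 50.6% of genes above 0. Between the PUVA groups the 10 genes had a median log2 difference of -0.05 (7-day minus 3-day). None of the 10 passed an adjusted p of 0.05 in limma in any comparison. That level was passed by 0.00902% of all genes for 7-day minus 3-day skin, 0.0% for 7-day minus control and 0.00451% for 3-day minus control.

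**Figure D1:**
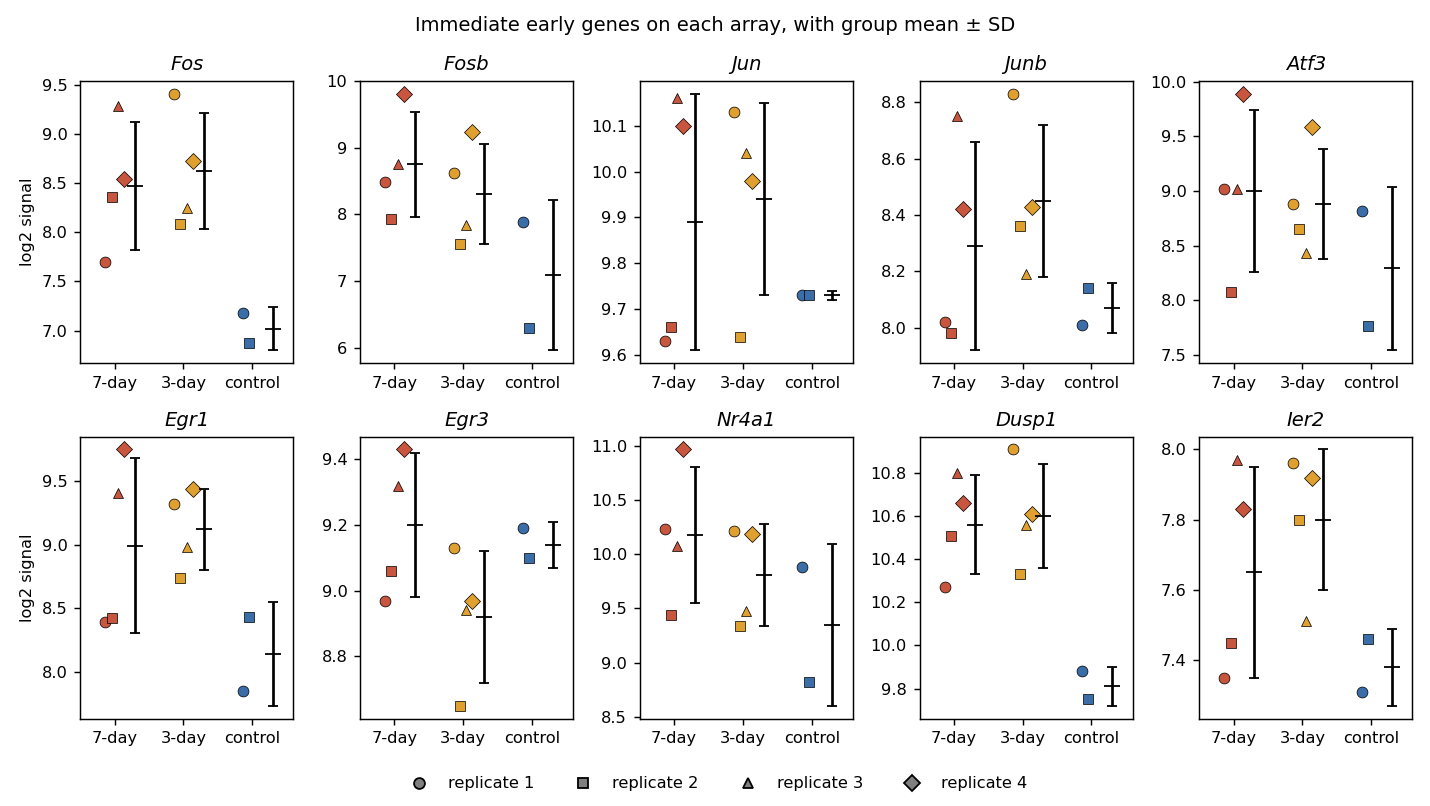
Log2 signal of the 10 immediate early genes on each array (y axes, log2, scaled per gene) in the 7-day, 3-day and control groups, with marker shapes for replicates within a group and the group mean ± SD to the right of the points (n = 4, 4 and 2). For Fos and Dusp1 all 8 PUVA points lie above both controls, while the other genes overlap with control in at least 1 PUVA group.

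Among the 10 genes, Fos and Fosb gave the largest differences from control. Fos encodes a partner of Jun in AP-1, and its RNA is a common readout of recent stimulation. Fos had log2 signals of 7.70, 8.36, 9.29 and 8.54 in the 7-day group, 9.41, 8.09, 8.25 and 8.73 in the 3-day group, and 7.18 and 6.87 in the controls. All 8 PUVA arrays lay above both controls, the closest by 0.52 log2 units, whereas the PUVA groups overlapped widely. Against control, the log2 difference was 1.45 ± 0.42 (SE) in the 7-day group, a 2.73-fold higher signal, and 1.6 ± 0.42 in the 3-day group, 3.03-fold higher. The adjusted p-values in limma were 0.748 and 0.303. By size of the positive difference Fos ranked 2 among 22180 genes in 7-day skin and 3 in 3-day skin.

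Fosb, a second Fos family member with inducible RNA, had log2 signals of 8.49, 7.93, 8.76 and 9.81 in the 7-day group, 8.62, 7.56, 7.84 and 9.23 in the 3-day group, and 7.89 and 6.30 in the controls. The 7-day arrays lay above both controls, replicate 2 by a narrow margin, while 2 of the 4 3-day arrays lay between the controls. The log2 difference from control was 1.66 ± 0.59 in the 7-day group, rank 1 of 22180 genes by positive size, and 1.22 ± 0.59 in the 3-day group (limma adjusted p = 0.784 and 0.541). The controls were 1.59 log2 units apart, with the lower value in replicate 2, the array with the higher hair follicle markers, whose part in this was not tested. Without control replicate 2 the differences were 0.86 and 0.42, and without control replicate 1 they were 2.45 and 2.02. Between the PUVA groups the difference was 0.44 ± 0.48 (7-day minus 3-day), and leaving out single arrays moved it between 0.08 and 0.74.

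The Jun genes gave smaller differences. Jun, the partner of Fos and the substrate of the JNK kinases, had log2 signals of 9.63, 9.66, 10.16 and 10.10 in the 7-day group, 10.13, 9.64, 10.04 and 9.98 in the 3-day group, and 9.73 in each control. The control values fell inside both PUVA groups, with 2 of 4 7-day arrays and 3 of 4 3-day arrays above them. Jun differed from control by 0.16 ± 0.18 log2 units in the 7-day group and by 0.21 ± 0.18 in the 3-day group. In the 7-day group the difference was 0.07 without replicate 3, 0.08 without replicate 4 and 0.24 without replicate 1.

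Junb, which restrains growth in the epidermis, had log2 signals of 8.02, 7.98, 8.75 and 8.42 in the 7-day group, 8.83, 8.36, 8.19 and 8.43 in the 3-day group, and 8.01 and 8.14 in the controls. The 3-day arrays lay above both controls and the 7-day arrays straddled them. Junb differed from control by 0.22 ± 0.22 log2 units in the 7-day group (0.07 without 7-day replicate 3) and 0.38 ± 0.22 in the 3-day group. Each of these differences from control was less than 2 SEs for both Jun genes.

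Atf3, a stress-induced member of the ATF/CREB family that can pair with Jun proteins, had log2 signals of 9.02, 8.07, 9.02 and 9.89 in the 7-day group, 8.88, 8.65, 8.43 and 9.59 in the 3-day group, and 8.82 and 7.76 in the controls. No PUVA array lay below control replicate 2, and 3 arrays lay between the controls. Its log2 difference from control was 0.71 ± 0.47 in 7-day skin and 0.59 ± 0.47 in 3-day skin. It depended on which control was used: without control replicate 2 the differences were 0.18 and 0.07, and without control replicate 1 they were 1.24 and 1.12.

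The 2 Egr genes, zinc finger regulators induced through serum response factor, had unlike patterns. Egr1 had log2 signals of 8.39, 8.42, 9.41 and 9.75 in the 7-day group, 9.32, 8.74, 8.98 and 9.44 in the 3-day group, and 7.85 and 8.43 in the controls. The 3-day arrays lay above both controls, whereas 7-day replicates 1 and 2 lay just under control replicate 2. Egr1 differed from control by 0.85 ± 0.37 log2 units in 7-day skin and 0.98 ± 0.37 in 3-day skin (limma adjusted p = 0.833 and 0.459), and without control replicate 1 it was 0.56 and 0.69.

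Egr3 had log2 signals of 8.97, 9.06, 9.32 and 9.43 in the 7-day group, 9.13, 8.65, 8.94 and 8.97 in the 3-day group, and 9.19 and 9.10 in the controls. It was the only one of the 10 genes with a 3-day mean below control. Its log2 difference from control was -0.22 ± 0.15 in the 3-day group (-0.13 without 3-day replicate 2), where 3 of 4 arrays lay below both controls, and 0.05 ± 0.15 in the 7-day group. The 7-day group lay 0.28 ± 0.12 log2 units above the 3-day group, with overlapping arrays and an adjusted p of 0.508 in limma.

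Nr4a1 encodes the orphan nuclear receptor Nur77. Its log2 signals were 10.23, 9.44, 10.08 and 10.97 in the 7-day group, 10.22, 9.34, 9.48 and 10.19 in the 3-day group, and 9.88 and 8.82 in the controls. No PUVA array lay below control replicate 2, but 1 of 4 7-day and 2 of 4 3-day arrays lay below control replicate 1. Nr4a1 differed from control by 0.83 ± 0.42 log2 units in the 7-day group, and 0.46 ± 0.42 in the 3-day group. Without control replicate 2 these were 0.30 and -0.07, the second with its sign turned, and without control replicate 1 they were 1.36 and 0.99.

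Dusp1, the phosphatase that switches off p38, JNK and ERK MAP kinases, had the differences from control that were largest for their SE. It had log2 signals of 10.27, 10.51, 10.80 and 10.66 in the 7-day group, 10.91, 10.33, 10.56 and 10.61 in the 3-day group, and 9.88 and 9.75 in the controls. All 8 PUVA arrays lay above both controls, the closest by 0.39 log2 units. The log2 difference from control was 0.75 ± 0.17 in 7-day skin and 0.79 ± 0.17 in 3-day skin, 1.68-fold and 1.73-fold higher, with adjusted p-values of 0.71 and 0.213 in limma. Leaving out single arrays kept these differences between 0.67 and 0.84, and between 0.69 and 0.88. Between the PUVA groups Dusp1 differed by -0.04 ± 0.14 (7-day minus 3-day).

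Ier2, which encodes a small nuclear protein that acts in transcription, had log2 signals of 7.35, 7.45, 7.97 and 7.83 in the 7-day group, 7.96, 7.80, 7.51 and 7.92 in the 3-day group, and 7.31 and 7.46 in the controls. The 3-day arrays lay above both controls, and 7-day replicates 1 and 2 lay between them. Ier2 differed from control by 0.27 ± 0.18 log2 units in the 7-day group (0.16 without 7-day replicate 3) and 0.41 ± 0.18 in the 3-day group.

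**Figure D2:**
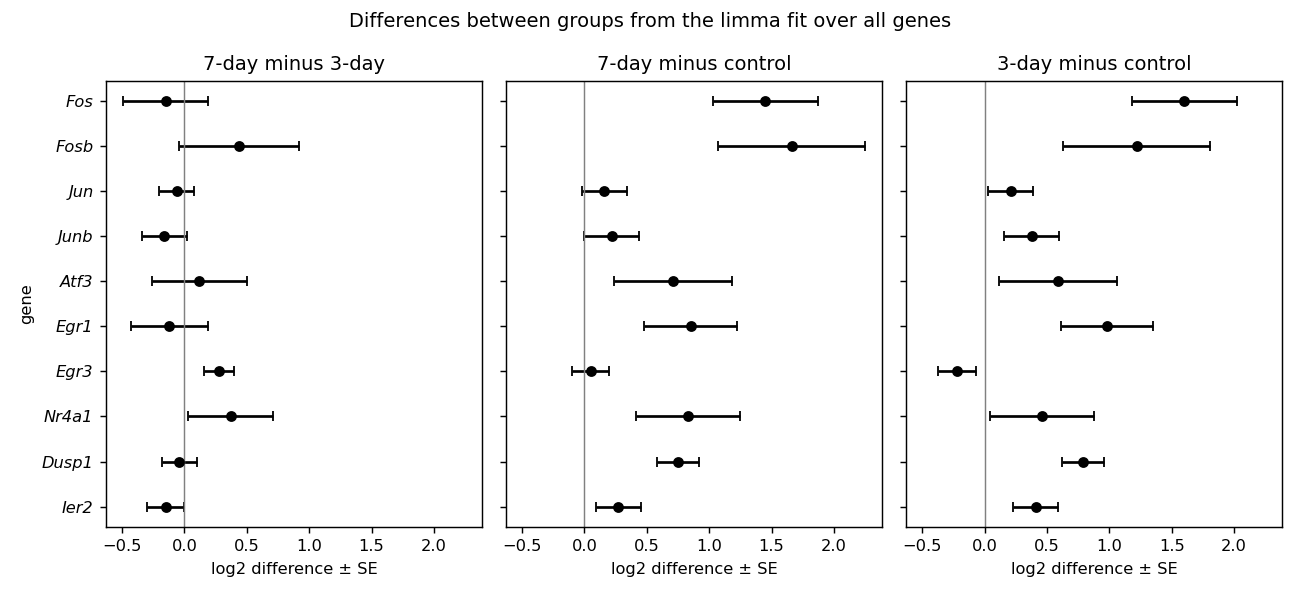
Log2 differences with SE from the limma fit over all genes (x axes) for each of the 10 genes (rows), for the 7-day minus 3-day, 7-day minus control and 3-day minus control comparisons. Differences from control reach 1.66 for Fosb and 1.6 for Fos, while those between the PUVA groups lie between -0.16 and 0.44.

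Set against all genes, 7-day minus 3-day skin gave 2 calls among 22180 genes at an adjusted p of 0.05 (0.00902%), and none of the 10. At an unadjusted p under 0.05 the limma fit took 1 of the 10 genes as higher, Egr3, against 5.33% of all genes, and 0 as lower, against 4.43%. None of the 10 had PUVA groups without overlap, where 2.95% of all genes were higher and 2.28% lower without overlap. Of the 10 genes, 4 (Fosb, Egr3, Atf3 and Nr4a1) had differences above 0, as did 53.2% of all genes, and 6 below. A log2 difference above 0.5 was found in 0 of the 10 and in 0.433% of all genes. Leaving out single arrays moved the median between -0.15 and 0.09, so its sign was not fixed.

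The comparison of the 7-day group with control called 0 genes in limma (0.0%), with 713 higher (3.21%) and 594 lower (2.68%) at an unadjusted p under 0.05. Of the 10 genes 4 were among those higher at that level (Fos, Fosb, Egr1 and Dusp1) and 0 among those lower. In 3 of the 10 genes, Fos, Fosb and Dusp1, all 7-day arrays lay above both controls, as in 8.56% of all genes, and in 0 all lay below, as in 5.85%. A log2 difference above 0.5 was found in 6 of the 10 genes and in 0.609% of all genes. The genes were chosen with these values known, so nothing is read from the shares. The median over the 10 genes ranged from 0.32 to 0.89 when single arrays were left out.

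The comparison of the 3-day group with control called 1 gene (0.00451%), which was none of the 10. At an unadjusted p under 0.05 limma took 4 of the 10 as higher (Fos, Egr1, Dusp1 and Ier2), against 5.67% of all genes, and 0 as lower, against 4.07%. In 5 of the 10 genes, Fos, Junb, Egr1, Dusp1 and Ier2, all 3-day arrays lay above both controls, as in 9.52% of all genes, and in 0 all lay below, as in 7.89%. A log2 difference above 0.5 was found in 5 of the 10 genes and in 1.99% of all genes, and the median over the 10 ranged from 0.38 to 0.77 when single arrays were left out. All 8 PUVA arrays lay above both controls for Fos and Dusp1, as for 2.95% of all genes, and below both for 0 of the 10, as for 2.22%. The comparisons with control share the same 2 controls.

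The 10 genes varied together between arrays of 1 group. In the 7-day group, replicates 3 and 4 were the 2 highest arrays for 8 of the 10 genes, and replicates 1 and 4 for the other 2, Atf3 and Nr4a1. In the 3-day group, replicates 1 and 4 were the 2 highest for 9 of the 10 genes. After centring each gene on its own mean over the 10 arrays, the average over the 10 genes was -0.13, -0.25, 0.42 and 0.60 in 7-day replicates 1 to 4, and 0.40, -0.22, -0.12 and 0.37 in 3-day replicates 1 to 4. In control replicates 1 and 2 it was -0.37 and -0.70. Every PUVA array thus lay above both controls on this average, but the lowest array of each PUVA group lay closer to control replicate 1 than to the highest array of its own group.

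**Figure D3:**
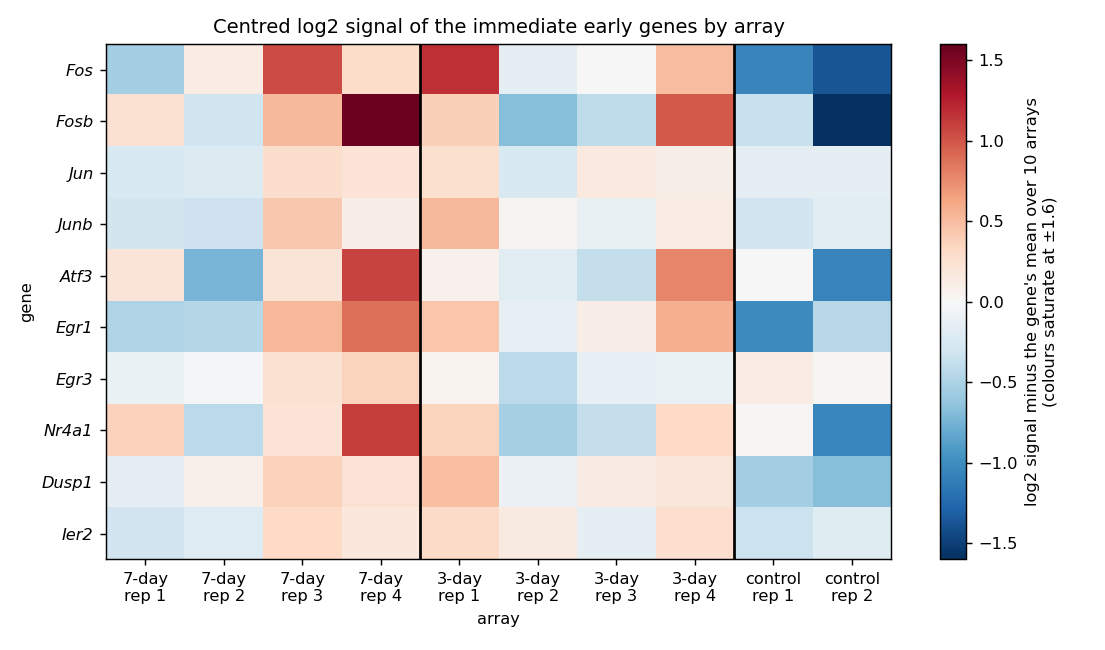
Log2 signal of each immediate early gene (rows) on each array (columns: 7-day, 3-day and control replicates), minus the gene's mean over the 10 arrays. 7-day replicates 3 and 4 and 3-day replicates 1 and 4 are red in most rows, and control replicate 2 is darkest blue for Fosb.

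As a description over the 10 arrays, deviations from the group means had a positive Pearson r in all 45 pairs of the genes, with a median of 0.65 and a range of 0.26 to 0.96. The genes share their arrays, and no such r was computed for pairs of other genes. Whether the values are particular to these genes is therefore not known. Fos and Dusp1, a kinase-driven transcription factor gene and the phosphatase gene of the same kinases, had an r of 0.96. Junb and Ier2 had 0.92, and Jun and Egr3 had 0.95. Fosb, Atf3 and Nr4a1 formed a close trio, at 0.94 for Fosb with Atf3, 0.96 for Fosb with Nr4a1 and 0.93 for Atf3 with Nr4a1. In contrast, Fos had 0.26 with Atf3 and 0.39 with Nr4a1. Fosb, Atf3 and Nr4a1 were also the genes whose controls were farthest apart, with control replicate 1 above control replicate 2 by 1.59, 1.05 and 1.06 log2 units. Egr1 had its control order turned, at -0.58, as had Junb and Ier2 by less, at -0.13 and -0.15. Apart from that trio and Egr1, the other 6 genes had controls within 0.31 of each other.

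The spread within groups was wide for most of these genes. Pooled over the 3 groups, the SD of the log2 signal was 0.832 for Fosb, 0.653 for Atf3, 0.585 for Nr4a1, 0.584 for Fos and 0.522 for Egr1, against a median of 0.14 over all genes. Only 31 of 22180 genes had a larger SD than Fosb, and 185 a larger SD than Egr1. Junb, at 0.3, stood at percentile 93.1. Ier2, Jun, Dusp1 and Egr3 had SDs of 0.238, 0.231, 0.219 and 0.194, at percentiles 85.2, 83.7, 80.9 and 73.2. Thus 6 of the 10 genes were among the 10% of genes with the widest spread. The SD does not use differences between groups, but the genes were not picked blind to it.

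**Figure D4:**
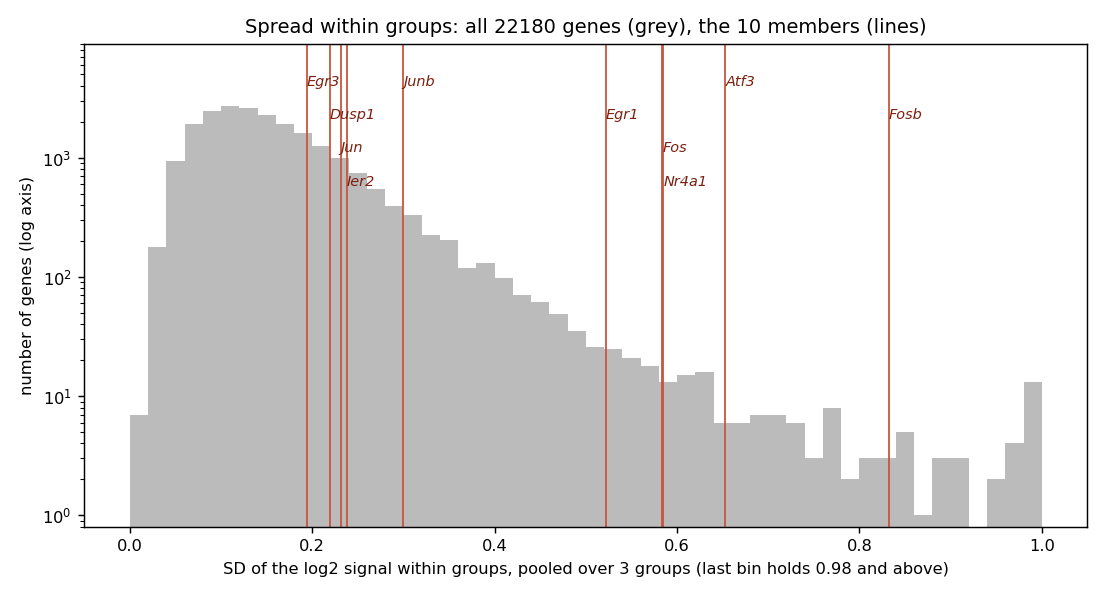
Number of genes (y axis, log scale) by SD of the log2 signal within groups (x axis, bins of width 0.02), for all 22180 genes, with red lines at the 10 immediate early genes. Fosb, Atf3, Nr4a1, Fos and Egr1 lie in the thin right tail, at 0.522 to 0.832, and Egr3, Dusp1, Jun and Ier2 on the shoulder at 0.194 to 0.238.

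Other genes of the response were taken from lists of related genes written from general knowledge, with earlier results of these arrays known. None of their 144 measured genes passed an adjusted p of 0.05 in limma in any comparison, so values are given and no gene is called changed. For 7-day skin minus control, 13 of the 144 genes were higher and 0 lower at an unadjusted p under 0.05, or 9.03% and 0.0%, where all genes gave 3.21% and 2.68%. For 3-day skin minus control 16 were higher and 1 lower, or 11.1% and 0.694%, where all genes gave 5.67% and 4.07%. For 7-day minus 3-day skin 7 were higher and 10 lower, or 4.86% and 6.94%, near the 5.33% and 4.43% of all genes. Groups did not overlap in 11.8% (higher) and 1.39% (lower) of the 144 genes for 7-day skin minus control, and in 14.6% and 4.17% for 3-day skin minus control. The shares over all genes were 8.56% and 5.85%, and 9.52% and 7.89%. Genes are named below for lying among those without overlap, and each has an adjusted p above 0.05. Their differences were also computed without each array in turn, a step chosen after seeing the data, and are given where they moved by over 1.5 times.

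Other immediate early genes (55 of 57 measured) had median log2 differences from control of 0.12 (7-day) and 0.11 (3-day). These lay below the medians of the 10 genes, which were chosen with their values known, so nothing is read from the contrast. Of the 55 genes, 42 lay above 0 in 7-day skin and 39 in 3-day skin. At an unadjusted p under 0.05, 11 were higher and 0 lower in the 7-day group, against 3.21% and 2.68% of all genes. In the 3-day group 10 were higher and 1 lower, against 5.67% and 4.07%. Without overlap, 18.2% of the list were higher and 1.82% lower in each PUVA group. All genes gave 8.56% and 5.85% (7-day), and 9.52% and 7.89% (3-day). Klf2, a transcription factor of endothelium and T cells, had log2 signals of 6.83, 6.82, 7.21 and 7.67 in the 7-day group, 7.78, 8.21, 7.27 and 7.70 in the 3-day group, and 6.37 and 6.65 in the controls. Both PUVA groups lay above both controls, with log2 differences of 0.62 ± 0.27 and 1.23 ± 0.27 (limma adjusted p = 0.83 and 0.223). Endothelial markers (7 of 7 measured) averaged 8.61 to 8.75 in the 7-day and 8.72 to 8.82 in the 3-day arrays. The controls had 8.55 and 8.49. All 8 PUVA arrays lay above both controls on this average, but among the single markers this held for Tek alone. Tek had a mean of 8.74 in each PUVA group and 8.09 in the controls. In the 7-day group Pecam1, Cdh5, Kdr, Tie1, Emcn and Eng overlapped with the controls. In the 3-day group every array lay above both controls for Cdh5, Eng, Kdr and Tie1 as well as Tek. Their 3-day means were 9.88, 9.47, 8.9 and 7.11, against control means of 9.64, 9.07, 8.77 and 6.95. Emcn overlapped there too, and the lowest 3-day array of Pecam1 was level with the higher control, at 9.38. T cell markers (6 of 8 measured) averaged 6.33 to 6.75, 6.35 to 6.66, and 6.58 and 6.41 in the same groups. The part of these cells in the Klf2 values was not tested.

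Ccn1, which encodes a matrix-associated signalling protein, had log2 signals of 10.14, 9.36, 10.08 and 10.36 in the 7-day group, 10.24, 10.74, 9.75 and 10.45 in the 3-day group, and 9.34 and 9.04 in the controls. Its log2 differences from control were 0.79 ± 0.29 and 1.10 ± 0.29, with both groups above both controls, 7-day replicate 2 narrowly so. Ptgs2, which encodes the inducible cyclooxygenase, lay above both controls in the 7-day arrays, with a log2 difference of 0.90 ± 0.35, and the EGF receptor ligand gene Ereg lay above them with 0.74 ± 0.29. The Ereg controls were 9.59 and 8.68, and its difference was 0.29 without control replicate 2 and 1.2 without control replicate 1. Phlda1 lay above both controls in the 3-day arrays, with 0.51 ± 0.22.

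Between the PUVA groups, 2 of the 55 other immediate early genes were higher and 1 lower without overlap, or 3.64% and 1.82%, near the 2.95% and 2.28% of all genes. The 3 genes are given as values. Ier3, an early gene of cell survival, had log2 signals of 9.15, 9.0, 9.24 and 9.33 in the 7-day group, against 8.72, 8.48, 8.82 and 8.82 in the 3-day group, and the controls had 9.03 and 8.99, above every 3-day array. The log2 difference was 0.47 ± 0.10 (7-day minus 3-day, limma adjusted p = 0.216). Cebpd, an inflammation-induced transcription factor gene, lay lower in the 7-day group, at 7.09, 6.87, 6.89 and 7.20, against 7.49, 7.39, 7.94 and 7.69 in the 3-day group. Its difference was -0.61 ± 0.14 (adjusted p = 0.243 in limma). Plk3, a stress-responsive kinase gene, differed by 0.20 ± 0.08.

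Other AP-1 and related bZIP genes (10 of 12 measured) had medians of 0.12 in both comparisons with control. Jund, the Jun gene that is expressed without stimulation, had a log2 difference of 0.17 ± 0.09 from control in each PUVA group, without overlap. In the 3-day group Jdp2, a repressor of AP-1, had 0.39 ± 0.14 and Fosl2 had 0.26 ± 0.13 (0.17 without 3-day replicate 3). Maff, a small Maf protein gene, lay higher in 7-day than in 3-day skin, by 0.22 ± 0.08. Without overlap, 1 of 10 genes of this list lay above control in 7-day skin, near the 8.56% of all genes. In 3-day skin 3 of 10 did, against 9.52%, and 1 of 10 was higher for 7-day minus 3-day skin, against 2.95%. No gene of this list was lower without overlap, where all genes gave 5.85%, 7.89% and 2.28% in the same order. Fosl1 was not analysed here.

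Kinase phosphatases and feedback inhibitors other than Dusp1 (17 of 17 measured) had medians of 0.06 (7-day) and 0.05 (3-day) against control, and 0 of the 17 was higher or lower at an unadjusted p under 0.05 in limma in either comparison. Of the 17, Dusp16 alone had groups without overlap, at -0.13 ± 0.08 in 3-day skin against control and 0.19 ± 0.07 for 7-day minus 3-day skin. That is 5.88% of the list in each comparison, where 7.89% of all genes were lower and 2.95% higher without overlap. The difference from control was -0.06 without control replicate 1 and -0.20 without control replicate 2. The kinases and transcription factors that act upstream (18 of 22 measured) had medians of 0.04 and 0.05. In the 3-day group Elk3, a serum response factor partner, had 0.42 ± 0.13 and the SRF coactivator gene Mrtfa had 0.37 ± 0.14. Map2k1 had 0.22 ± 0.10 there (0.11 without control replicate 2). In the 7-day group Map2k1 had 0.15 ± 0.10 (0.05 without control replicate 2, 0.26 without control replicate 1). Crem had 0.15 ± 0.10 (0.09 without control replicate 2) and Map2k2 had 0.10 ± 0.08 in that group. Mapk7 had -0.08 ± 0.06 for 7-day minus 3-day skin. Without overlap, 16.7% (7-day) and 22.2% (3-day) of the upstream list were higher, against 8.56% and 9.52% of all genes. The shares lower were 0.0% and 5.56%, against 5.85% and 7.89%. For 7-day minus 3-day skin 0.0% of that list were higher and 5.56% lower, against 2.95% and 2.28%. Heat shock genes (13 of 15 measured) had medians of 0.11 (7-day) and 0.01 (3-day). Hspa1a had 0.29 ± 0.14 in the 7-day group (0.16 without control replicate 2) and Bag3 had 0.40 ± 0.23 in the 3-day group. Each is 7.69% of the heat shock list, below the 8.56% and 9.52% of all genes that were higher without overlap. No heat shock gene was lower without overlap. Genes of the unfolded protein and amino acid stress responses (12 of 12 measured) had medians of 0.03 and -0.09, with Ddit3, a stress-induced transcription factor gene, at -0.23 ± 0.11 in the 3-day group (-0.13 without control replicate 2). Asns had -0.21 ± 0.11 and Atf4 had -0.11 ± 0.08 in the 3-day group. In the other direction, Dnajb9, a chaperone gene of the endoplasmic reticulum, had 0.26 ± 0.10 in 7-day skin against control (0.16 without control replicate 2), and Ddit3 had 0.28 ± 0.09 for 7-day minus 3-day skin.

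Genes known as targets of AP-1 or Egr1 (19 of 21 measured) had medians of 0.13 (7-day) and 0.19 (3-day) against control. In the 3-day group the chemokine gene Ccl2 had a log2 difference of 0.80 ± 0.31, Tgfb1 had 0.55 ± 0.29 and Timp1, an inhibitor of matrix proteases, had 0.50 ± 0.18, each with all 4 arrays above both controls. Without 3-day replicate 2 these were 0.51, 0.34 and 0.33. In the 7-day group Plau, the urokinase gene, had 0.42 ± 0.30 with all arrays above both controls, and Timp1 had -0.17 ± 0.18 with all arrays below both. Each is 5.26% of the list, below the 8.56% (higher) and 5.85% (lower) of all genes. In the 3-day group 15.8% of the list were higher than control without overlap and 0.0% lower, against 9.52% and 7.89%. Between the PUVA groups 0.0% were higher and 10.5% lower, against 2.95% and 2.28%. For Ccl2, Tgfb1 and Timp1, as for Klf2 and Ccn1, the highest array was 3-day replicate 2. That array also had the highest mean of the macrophage markers, 10.47, and of the fibroblast markers, 11.99, and the part of those cells in these values was not tested. It was the lowest of the 3-day arrays for 7 of the 10 immediate early genes. Timp1 had log2 signals of 5.16, 5.02, 5.24 and 5.10 in the 7-day group, against 5.57, 6.31, 5.63 and 5.67 in the 3-day group, a difference of -0.67 ± 0.15 (limma adjusted p = 0.235). The collagenase gene Mmp13 also lay lower in the 7-day group, with a difference of -0.94 ± 0.23 (7-day minus 3-day, limma adjusted p = 0.271). Its 7-day signals of 3.47 to 4.12 were below the lower quartile of those arrays (4.21 to 4.23), and 3-day replicate 4, at 4.15, was just below that of its own array, so the size of that difference is uncertain.

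**Figure D5:**
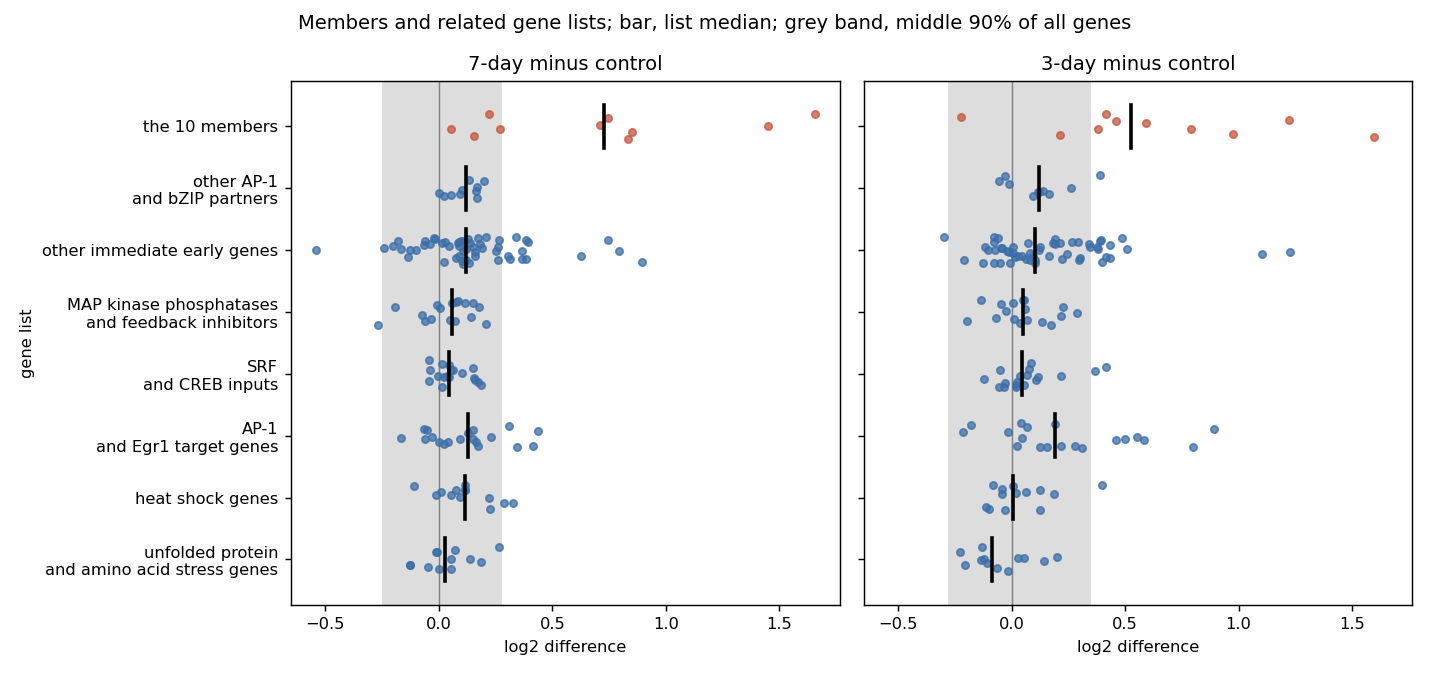
Log2 differences from control (x axes) of single genes in the 7-day (left) and 3-day (right) groups, for the 10 immediate early genes (red) and the related lists (blue), with the list median as a black bar and the middle 90% of all genes as a grey band. Single genes of the 10 reach 1.66 in 7-day skin and 1.6 in 3-day skin, with Egr3 at 0.05 and -0.22, and the band runs from -0.24 to 0.27 and from -0.28 to 0.35. The 10 genes were chosen with these values known, so their place in the plot is a description.

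Likeness to the 10 genes was measured as the Pearson r over the 10 arrays between a gene and the average of the 10 centred genes. The r was 0.92 for Fosb, 0.88 for Egr1, 0.86 for Fos and Dusp1, 0.85 for Nr4a1, 0.83 for Atf3, 0.80 for Jun, 0.79 for Ier2 and 0.75 for Junb, which are parts of that average, and 0.45 for Egr3. Among the other 22170 genes, the named genes with the highest r were Ccdc173 (0.95), Sestd1 (0.92), Ppig (0.92), Nfatc2 (0.92), Tnfaip3 (0.92), Rasl10a (0.91), Ppp2r2cos (0.90) and Isg20 (0.90). Only Tnfaip3, which encodes a brake on NF-kB signalling and is itself an early gene, was on a list written for this response. Most of the others had a narrow range, such as 0.30 log2 units between the lowest and highest array for Ccdc173 and 0.33 for Ppig, against 0.80 for Tnfaip3. Some signals were also low. Ppp2r2cos, at 3.75 to 4.38, lay around the lower quartiles of the arrays (4.17 to 4.23), and Ccdc173, at 5.18 to 5.48, below their medians (5.83 to 5.86). The lowest r was found for Eif4h, Lmln and Sfrp1 (-0.92 each) and Rnf4 (-0.90), of which Sfrp1, a secreted Wnt inhibitor, had the widest range, 0.95 log2 units.

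An r above 0.5 was found in 9.28% of the other genes. It was found in 38.2% of the other immediate early genes (21 of 55), with Nfkbia and Hbegf at 0.87, Nfkbiz at 0.86 and Klf4 at 0.84. Of the other AP-1 genes 4 of 10 had such an r, with Mafk at 0.83 and Jund at 0.81. The share was 23.5% among phosphatases and feedback inhibitors, 23.1% among heat shock genes, 11.1% among upstream kinases and factors, 10.5% among AP-1 and Egr1 targets and 0.0% among unfolded protein and amino acid stress genes. With 10 arrays in 3 groups, these values describe only how alike the log2 signals ran over the arrays, and 1 extreme array can weigh heavily.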

How the data were processed

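The deposited table holds 1 log2 value per probe set and array for 41345 rows. How the authors normalized it, its log base and its genome build were not stated in any source used here, and the base was inferred from the range of values. Arrays have no read depth. Precision is limited by how few arrays there are, mostly by the 2 controls.

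Gene names came from the annotation of the platform: 23521 had 1 symbol, 1814 had several and were not used, and 16010 rows had no listed gene. For 1082 genes with more than 1 probe set the one with the highest mean was kept, which gave 22180 genes. All 10 members matched the RefSeq gene table. Of 166 symbols in the gene lists 154 were matched, and of 105 cell type markers 96; 4 in all were matched through a synonym, and the rest were not analysed here.

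A model of 3 group means was fitted to the 10 arrays. It used limma (version 3.58.1, R version 4.3.3), through lmFit and then eBayes, with two-sided tests, 7 residual and 3.514 prior degrees of freedom and Benjamini-Hochberg adjustment over all genes. Errors of log2 differences are standard errors of this fit, which takes 1 spread per gene over all groups. For genes whose controls differ more than the PUVA arrays they may be too small. Members and lists were chosen with earlier results of these data known. From each list, the genes named as results were up to 3 per comparison with the largest difference among those whose groups did not overlap. The likeness rule named the 8 highest and 4 lowest genes and left 3 gene models, small RNAs or receptors unnamed. Other genes with an r were named after their values were seen. The scripts were tested on simulated data. The settings varied were a filter that dropped the lowest 30% of genes, the mean of a gene's probe sets, all rows, quantile normalization, median centring, trend and robust settings, array weights, only the groups compared, a threshold of 0.1 and leaving out each array.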

Additional observations from a re-analysis of the deposited data

How the results depend on the processing

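No alternative gave a call for any of the 10 immediate early genes. Over 19 alternatives the lowest adjusted p in limma was 0.157, for Dusp1 in the 3-day group against control with trend and robust settings. All 540 recomputed differences of single members stayed within 1 pooled SD of the reported value, but this bound is wide and no stability is read from it. Leaving out 1 of 4 arrays of a group can hardly move a difference that far. The controls do not enter the 7-day minus 3-day difference. Fosb in the 7-day group went from 1.66 to 0.86 without control replicate 2 and still counted as within the bound. Of the 540 differences 14 changed sign, 12 of them between the 7-day and the 3-day group. The others were Nr4a1 in the 3-day group (-0.07 without control replicate 2) and Egr3 in the 7-day group (-0.03 without 7-day replicate 4). The median over the 10 genes ranged from 0.32 to 0.89 in the 7-day and from 0.38 to 0.77 in the 3-day group against control, and from -0.15 to 0.09 between the PUVA groups, without single arrays. The number of genes called overall was less stable. Between the 7-day and 3-day groups it was 2 as reported, 6 at an adjusted p under 0.1, 1 without the lowest 30% of genes, 6 with array weights and 1 with only the groups compared, and 0 to 10 without single arrays. For the 7-day group against control it was 0, and 0 to 217 without single arrays. For the 3-day group against control it was 1, 16 at an adjusted p under 0.1, 3 with array weights, and 1 to 182 without single arrays. The counts of 217 and 182 came without control replicate 1 and rest on a single control, whose spread was taken from the PUVA groups. The cause was not tested. No paired analysis was possible because the labels give no replicate numbers that groups share. The signal over background was not analysed here.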
